A study of Homo sapiens with 6 samples.

Results

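The genes described here build the contacts between epithelial cells: cadherins and their catenins at adherens junctions, claudins, the occludin family and scaffold proteins at tight junctions, and the proteins that set apical-basal polarity. They were chosen by name, as the rows of the coding gene table whose symbol starts with CLDN, CDH or TJP followed by a digit, together with 24 further names; 45 of 15376 rows are members. Of the 24 names, 6 are not spelled so in the table, which holds them under older symbols; these are described apart and are not counted. All 45 members had at least 1 read in some library and were tested. Their transcripts were sequenced in PC9ER, a line of human non-small cell lung cancer that the series describes as driven by EGFR and resistant to gefitinib, a small-molecule inhibitor of that receptor's kinase.

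The groups were 3 libraries from cells exposed to gefitinib at 1 µM during the final 6 h, and 3 libraries from control cells. One protocol is given for all samples: culture in medium with 10% fetal calf serum, 72 h of the vehicle DMSO in place of a Notch pathway inhibitor, then overnight without serum. Whether serum was also withheld from control cells is left unsaid, as is their handling during the drug exposure, so serum and drug cannot be told apart for any result here. The cells are 1 line, and no label states that replicates are separate cultures, so p-values cover only the spread between these libraries, which may be technical. RNA was taken from all cells together, so that fewer cells of a kind and less RNA per cell cannot be told apart.

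At adherens junctions, cadherins of neighbouring cells bind each other outside the cell, and catenins join their tails to the actin cytoskeleton; nectins and afadin form a parallel contact. At tight junctions, claudins set which ions and solutes pass between cells, and zonula occludens proteins such as those encoded by TJP1 and TJP3 hold claudins and occludin at the membrane. The Crumbs and PAR complexes mark the apical side of the cell and the Scribble complex the basolateral side. In lung epithelium these structures form the barrier between air and tissue.

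Coding reads ranged from 13674237 to 38581498 per gefitinib library and from 16211544 to 25639050 per control library, and values are reads brought to 18085800 in every library, called normalized reads below. Of 6 listed markers of an epithelial lung cancer line, NKX2-1 had no row. The other 5 were EGFR, KRT7, KRT8, KRT18 and KRT19. They summed to between 61223 and 63437 normalized reads in gefitinib libraries and between 86582 and 129707 in control libraries. All 5 were called lower by the test given below, as were 22.8% of all genes tested. The 5 fibroblast markers with a row, of 8 listed, summed to between 47.6 and 68.0 in gefitinib and between 32.4 and 71.4 in control libraries. The 6 blood markers summed to between 34.4 and 39.8 in gefitinib and between 23.4 and 31.0 in control libraries. Among these 6, CD14 was called higher, with 30 reads in gefitinib and 1 in control libraries (limma adjusted p = 0.000893). The other 5 blood markers did not pass. Of 6 endothelial markers, 4 had a row, with PECAM1 at 122 ± 10.5 in gefitinib and 1216 ± 80.4 in control libraries (SD, n = 3 each), VWF at 5.18 in gefitinib and 8.64 in control libraries, TEK at 0.915 in gefitinib and 0 in control libraries, and the member CDH5, described below; the part of these markers in the results was not tested. Control replicate 1 stood apart: on principal component 2, with 9.59% of the variance, it lay at 38.1, with control replicates 2 and 3 at -12.6 and -28.8, and gefitinib libraries 1, 2 and 3 lay at 23.3, -8.86 and -11.1. Its deviation from the other control libraries followed the GC content of the transcript (Pearson r = -0.74, Spearman rho = -0.76 across 12047 genes, which share these libraries). For gefitinib replicate 1 r was -0.17. Some of the members that the deviation of control replicate 1 touches are marked below, and a member without a mark can be touched too.

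The comparison asks how junction and polarity transcripts differ after a short exposure to the inhibitor. Of the 45 members, 12 rose and 10 fell with gefitinib past the threshold, a limma adjusted p under 0.05, and 23 did not pass. That is 48.9% of the members, against 51.1% called among all 15229 genes tested (28.3% higher and 22.8% lower). The median log2 difference, gefitinib minus control, was 0.05 for the members and 0.10 for all genes tested. At least 2-fold changes were called for 7 members higher and 4 lower, 24.4% of the members against 22.3% of all genes tested. Gefitinib and control values were fully apart for 24 members, 53.3%, against 58.0% of all genes tested. As a list the members were thus called about as often as other genes, and what follows describes the single members. For 28 members the mean over all libraries was 100 normalized reads or more; 9 of these rose, 8 fell and 11 did not pass, so that 60.7% were called, against 61.8% of all genes at that level. Without control replicate 1 the member counts were 11 higher and 14 lower, and 14 and 12 after each library's trend with transcript GC had been removed, an alternative added after the data were seen.

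**Figure D1:**
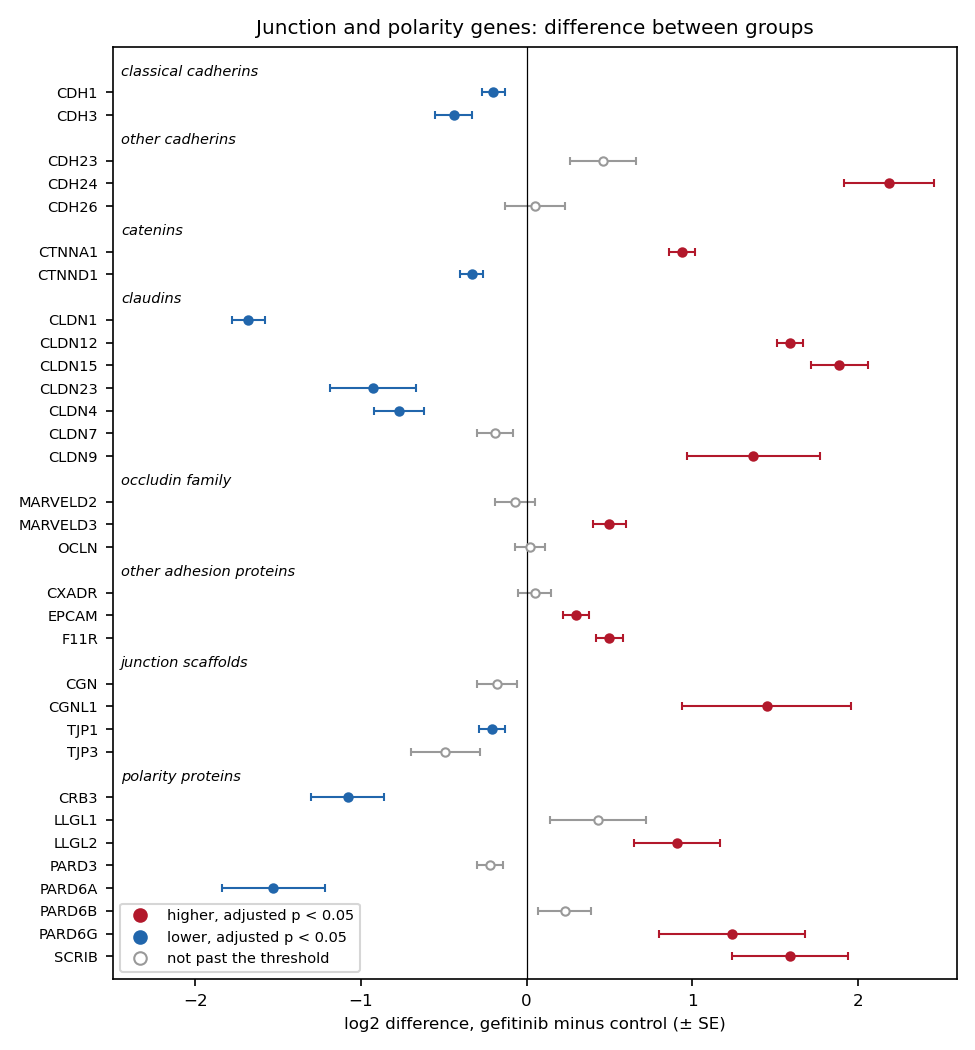
Log2 difference, gefitinib minus control, with its standard error, for 32 members that passed the test or had a mean of 100 normalized reads or more, ordered by role. Filled points passed an adjusted p of 0.05, and each of the roles claudins, catenins, junction scaffolds and polarity proteins holds filled points on both sides of 0; the lowest filled point is CLDN1 at -1.68 and the highest CDH24 at 2.19.

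Claudins, the membrane proteins that form the seal and the pores of tight junctions, moved in both directions. CLDN1, CLDN4 and CLDN23 fell, CLDN9, CLDN12 and CLDN15 rose, and 8 of the 14 claudins with a row did not pass. That is 42.9% called, against 51.1% of all genes tested. CLDN1, a sealing claudin of many epithelia (chromosome 3, 190305701 to 190322475, minus strand, GRCh38), had 1477, 1236 and 1366 normalized reads in gefitinib libraries 1, 2 and 3, against 4951, 4109.9 and 4050.3 in control libraries 1, 2 and 3. The lowest control value was well above the highest gefitinib value. CLDN1 was 3.21-fold lower by the means and fell by 1.68 ± 0.10 log2 units (SE; limma adjusted p = 3.41e-06).

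CLDN4 (chromosome 7, 73799542 to 73832693), another claudin that tightens the barrier, had 3861, 3738 and 3527 normalized reads in gefitinib libraries, against 4783, 6869.9 and 7643 in control libraries. It fell by 0.77 ± 0.15 (SE; limma adjusted p = 0.00244), with control replicate 1 the lowest of its group and still above every gefitinib library. CLDN7 (chromosome 17, 7259903 to 7263983), found along the lateral membrane as well as in the tight junction, had 3846, 3455 and 3592 with gefitinib and 3489.6, 4296 and 4722 in control, groups that overlap through control replicate 1. Its difference of -0.19 ± 0.11 did not pass (limma adjusted p = 0.191), and without control replicate 1 it was -0.31 (limma adjusted p = 0.0038), without control replicate 3 -0.09 (0.51; from 0.0038 to 0.902 over all alternatives). CLDN23 fell from a low level, with means of 31.2 ± 3.29 in gefitinib and 60.8 ± 12.1 in control libraries (SD, n = 3 each; limma adjusted p = 0.0152, and 0.0572 without control replicate 2).

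CLDN12 (chromosome 7, 90383721 to 90513402), which lacks the C-terminal motif by which most claudins bind scaffold proteins, had 1575, 1674 and 1688 normalized reads in gefitinib libraries, against 547, 541 and 548 in control libraries. Both groups were tight and 3.02-fold apart, with a log2 difference of 1.59 ± 0.08 (limma adjusted p = 1.79e-06). CLDN15 (chromosome 7, 101232092 to 101238820, minus strand), a claudin that forms sodium-permeable pores in the intestine, had 381, 552 and 540.0 in gefitinib and 131, 133 and 125 in control libraries. Gefitinib replicate 1 was the lowest of its group and still well above every control library, and the log2 difference was 1.89 ± 0.17 (limma adjusted p = 2.42e-05). CLDN9 (chromosome 16, 3012456 to 3014505), known from the inner ear, had 93.9, 144 and 127 in gefitinib libraries, against 24.7, 46.9 and 82.0 in control libraries, a log2 difference of 1.37 ± 0.40 (limma adjusted p = 0.0172, and 0.0696 and 0.0538 without gefitinib replicate 2 or 3). Its transcript has 64.5% GC, and control replicate 1 lay 1.30 below the other controls on the log2 scale; when it was left out the difference was 0.94 (limma adjusted p = 0.0199).

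The remaining claudins had few reads in either group. CLDN3 had 6.35 ± 1.55 in gefitinib and 12.2 ± 7.18 in control libraries and CLDN16 7.25 ± 2.45 in gefitinib and 11.8 ± 2.72 in control libraries (SD, n = 3 each); without control replicate 1 CLDN3 passed as lower (limma adjusted p = 0.0338). CLDN6, a claudin of embryonic epithelia, had 13 reads in the gefitinib libraries together and 3 in the control libraries together, a depth-corrected ratio of 3.63 with an exact 95% counting interval from 0.998 to 19.9. Its groups did not overlap, with a limma adjusted p of 0.0897, and 0.0475 when gefitinib replicate 3 was left out. CLDN2, a cation-pore claudin, had 20 reads in gefitinib and 7 in control libraries, and CLDN11 had 10 in gefitinib and 7 in control libraries. CLDN8 had 0 reads in gefitinib and 2 in control libraries, and CLDN20 had 2 in gefitinib and 0 in control libraries, where a count of 0 allows up to 3 reads. Over all libraries none of these 7 passed the test, and at this depth a difference was not detectable for CLDN8 and CLDN20.

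Per kilobase of exon sequence, CLDN7, CLDN4 and CLDN1 were the main claudins in both groups. CLDN7 stood at 1457 normalized reads per kb in gefitinib and 1673 in control, CLDN4 at 789 in gefitinib and 1368 in control, and CLDN1 at 371 in gefitinib and 1193 in control. CLDN12 stood at 244 in gefitinib and 80.9 in control per kb and CLDN15 at 169.7 in gefitinib and 44.9 in control. As a share of the per-kb level of all 14 claudins, CLDN1 made up 11.9% ± 0.793 in gefitinib and 27.3% ± 6.05 in control libraries (SD, n = 3 each). CLDN12 made up 7.84% ± 0.471 in gefitinib and 1.84% ± 0.192 in control libraries, and CLDN15 made up 5.47% ± 1.18 in gefitinib and 1.02% ± 0.125 in control libraries. CLDN7 made up 46.7% ± 1.43 in gefitinib and 37.7% ± 1.96 in control libraries, a share that is larger with gefitinib although its own level did not pass the test. Lengths are those of all annotated exons together, so a gene with long unused exons is placed too low.

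**Figure D2:**
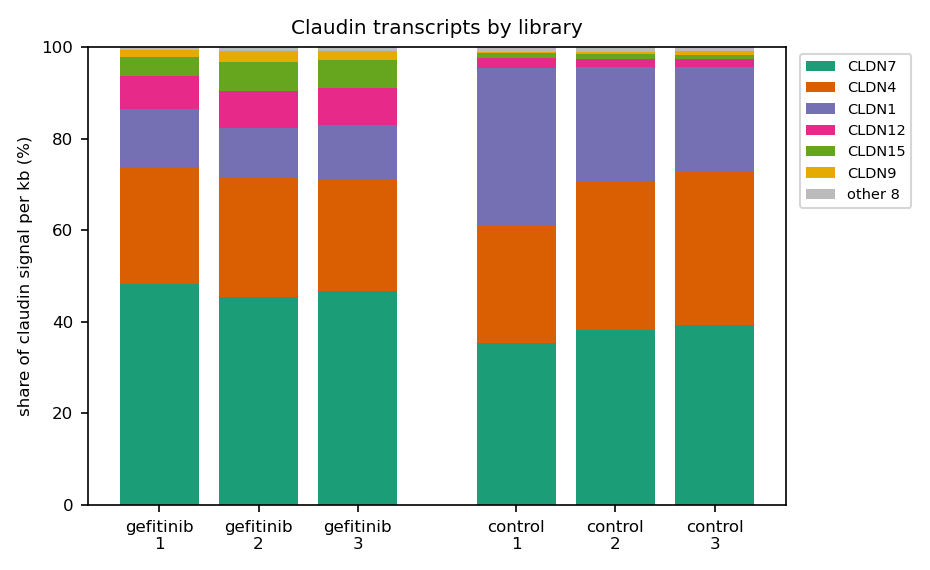
Share of each claudin in the summed per-kb level of the 14 claudins, in percent, for gefitinib libraries 1 to 3 (left) and control libraries 1 to 3 (right). The CLDN1 band is narrower in each gefitinib library, at most 12.6%, than in each control library, at least 22.9%, and the CLDN12 and CLDN15 bands are wider.

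Some members lie side by side in the genome, by the gene spans given here. CLDN1 and CLDN16 (chromosome 3) point away from each other with 65 bases between their annotated starts; CLDN1 fell, and CLDN16 had the few reads given above. CLDN9 and CLDN6 (chromosome 16) point towards each other with 206 bases between their annotated ends. CLDN3 and CLDN4 (chromosome 7) lie 29.3 kb apart and are divergent, and CLDN4 held 14580 reads in gefitinib and 20857 in control libraries, and CLDN3 25 in gefitinib and 38 in control libraries. CDH3 and CDH1 lie 14.6 kb apart on the same strand of chromosome 16, which holds 10 of the 45 members, and both fell.

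RefSeq promoter windows of 300 bases, from 250 before to 50 after the start that RefSeq gives (GRCh38.p14), were matched for 25 members. Gene positions come from another annotation, GENCODE, whose starts can differ. The windows of CLDN4, CLDN12, CLDN15 and CRB3 lie wholly inside the GENCODE span of the gene, downstream of its start. Shown are those of the claudins with the largest falls and rises that had one at a mean of 100 normalized reads or more, and that of CRB3, a polarity gene described below. They are at chr3:190322397-190322696 (minus strand), chr7:73830746-73831045 (plus), chr7:90403211-90403510 (plus), chr7:101237753-101238052 (minus) and chr19:6464021-6464320 (plus), printed 5′ to 3′ along the gene. Capitals mark 2 motifs on either strand: TGANTCA, the site of AP-1 factors, and CAGGTG, an E-box that repressors of epithelial genes such as ZEB1 and SNAI1 bind.
CLDN1: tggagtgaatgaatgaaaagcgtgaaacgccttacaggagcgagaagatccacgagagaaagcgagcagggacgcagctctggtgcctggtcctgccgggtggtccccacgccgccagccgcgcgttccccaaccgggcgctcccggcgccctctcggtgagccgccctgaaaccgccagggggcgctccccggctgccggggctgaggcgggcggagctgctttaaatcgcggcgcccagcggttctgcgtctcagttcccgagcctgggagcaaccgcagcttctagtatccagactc
CLDN4: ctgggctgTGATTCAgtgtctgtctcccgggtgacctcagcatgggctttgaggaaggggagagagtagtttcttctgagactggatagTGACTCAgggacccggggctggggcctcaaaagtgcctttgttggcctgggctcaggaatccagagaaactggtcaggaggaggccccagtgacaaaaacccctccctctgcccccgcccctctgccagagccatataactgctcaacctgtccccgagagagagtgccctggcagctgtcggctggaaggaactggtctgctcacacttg
CLDN12: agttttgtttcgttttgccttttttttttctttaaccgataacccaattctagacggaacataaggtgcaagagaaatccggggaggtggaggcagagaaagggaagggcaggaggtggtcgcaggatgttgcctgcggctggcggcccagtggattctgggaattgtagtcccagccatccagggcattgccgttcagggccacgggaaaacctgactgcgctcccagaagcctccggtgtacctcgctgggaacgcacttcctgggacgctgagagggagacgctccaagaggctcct
CLDN15: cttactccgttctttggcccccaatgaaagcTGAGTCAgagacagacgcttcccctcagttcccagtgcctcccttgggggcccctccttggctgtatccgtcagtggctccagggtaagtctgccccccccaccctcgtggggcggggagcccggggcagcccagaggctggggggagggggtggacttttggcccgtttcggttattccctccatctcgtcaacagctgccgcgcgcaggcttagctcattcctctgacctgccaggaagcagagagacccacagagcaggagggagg
CRB3: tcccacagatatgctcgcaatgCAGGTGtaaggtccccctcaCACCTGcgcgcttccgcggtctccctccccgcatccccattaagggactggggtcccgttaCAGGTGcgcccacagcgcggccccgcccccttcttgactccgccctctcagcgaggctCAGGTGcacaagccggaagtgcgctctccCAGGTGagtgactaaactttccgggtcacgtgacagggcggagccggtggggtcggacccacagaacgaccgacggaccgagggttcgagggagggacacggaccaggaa
CLDN4 holds TGANTCA beginning 242 and 161 bases before the start and CLDN15 beginning 219 bases before it, so the motif stands in a member that fell and in one that rose. CRB3 holds CAGGTG at 5 places, beginning 228, 208, 147, 89 and 60 bases before the start, and the windows of CLDN1 and CLDN12 hold neither motif. Among the 25 members, 4 windows held TGANTCA and 6 held CAGGTG, 16.0% and 24.0%, against 7.71% and 20.6% of 35116 windows of all genes. CAGGTG was in 3 of 5 windows of members that fell (CRB3, PARD6A and TJP1), 0 of 5 of members that rose and 3 of 15 of the others. Another motif, GGGCGG, the GC box of SP factors, was searched on both strands and is not marked: 76.0% of the 25 windows and 45.0% of all windows held it. The windows of all genes were not limited to the genes tested here, so they are no matched background for any of these shares. The marked motifs overlap at no place in the windows shown. A match of letters is a description and does not show that a factor binds there.

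The scaffold proteins lie below the tight junction membrane. TJP1 (chromosome 15, 29699367 to 29968865, minus strand), which encodes ZO-1, had 2438, 2479.7 and 2479 normalized reads with gefitinib and 3035, 2843 and 2716 in control libraries. This small fall of 0.21 ± 0.08 (SE; limma adjusted p = 0.0383) was lost without control replicate 2 (0.111) and without gefitinib replicate 1, 2 or 3 (0.0778, 0.118 and 0.0931), and against a 1.2-fold change (0.899).

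TJP3 (chromosome 19, 3708109 to 3750813), which encodes ZO-3, had 319, 295 and 258 in gefitinib libraries, against 286, 449.6 and 524 in control libraries. Control replicate 1 lay within the gefitinib range, and the difference of -0.49 ± 0.21 did not pass (limma adjusted p = 0.0848). It passed in 9 alternatives, among them without control replicate 1 (-0.74, limma adjusted p = 0.00103), with the GC trend removed (0.0052) and with edgeR on recovered reads (adjusted p = 0.025), while without control replicate 3 it was -0.31 (limma adjusted p = 0.254). CGN, which encodes the scaffold cingulin, had 624 ± 53.9 in gefitinib and 710.3 ± 91.2 in control libraries (SD, n = 3 each) and did not pass (limma adjusted p = 0.251). Its relative CGNL1, paracingulin, rose from very few reads, 59 in the gefitinib and 16 in the control libraries together (limma adjusted p = 0.0397, and 0.108 with DESeq2 and 0.0858 without control replicate 1; from 0.0128 to 0.121 over all alternatives).

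In the occludin family 1 of 3 members passed, or 33.3%, against 51.1% of all genes tested. OCLN (chromosome 5, 69492292 to 69558104), occludin itself, had 1509, 1487 and 1476 normalized reads in gefitinib and 1618, 1437 and 1376 in control libraries, overlapping groups with a difference of 0.02 ± 0.09 (limma adjusted p = 0.888). MARVELD2, tricellulin, found at the corners where cells meet, had 772 ± 70.1 in gefitinib and 813 ± 94.5 in control libraries (SD, n = 3 each; difference -0.07 ± 0.12). MARVELD3 (chromosome 16, 71626161 to 71642114), the other relative, had 865, 815 and 804 in gefitinib libraries, against 614, 533 and 605 in control libraries, and rose by 0.50 ± 0.10 (SE; limma adjusted p = 0.00251, and 0.0555 against a 1.2-fold change). In the annotation 16.6% of the exon bases of MARVELD3 are shared with PHLPP2 on the other strand, and the sources used here do not state whether counting was stranded, so reads there are of uncertain origin.

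Of the other adhesion proteins, F11R and EPCAM rose. F11R (chromosome 1, 160995211 to 161021348, minus strand), the junctional adhesion molecule JAM-A, had 4476, 4519 and 4311 normalized reads with gefitinib, against 3408, 3036 and 2953 in control libraries. All gefitinib values lay above all control values, with a difference of 0.50 ± 0.08 (SE; limma adjusted p = 0.000647). Of its exon bases 36.6% are shared with AL591806.3 on the same strand. EPCAM (chromosome 2, 47345158 to 47387601), an epithelial adhesion protein that binds CLDN7, had 12377, 11719.9 and 11954 in gefitinib and 10537, 9688 and 9066 in control libraries. The difference of 0.30 ± 0.08 passed (limma adjusted p = 0.0106) but was 0.24 with TMM factors, where it did not (0.06), and with edgeR and DESeq2 on recovered reads the adjusted p was 0.052 and 0.0759. CXADR, the coxsackievirus and adenovirus receptor of the tight junction, had 1014 ± 74.2 in gefitinib and 982 ± 86.7 in control libraries (SD, n = 3 each; difference 0.05 ± 0.10).

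CDH1 and CDH3 fell by small amounts. CDH1 (chromosome 16, 68737225 to 68835548), E-cadherin, the main adhesion protein of epithelial cells, had 10888, 10249.6 and 10688 normalized reads in gefitinib libraries, against 12458, 11967 and 12115 in control libraries. The groups did not overlap, but the fall of 0.20 ± 0.07 (SE; limma adjusted p = 0.0364) was lost without control replicate 2 or 3 (0.0945 and 0.0674), without gefitinib replicate 2 or 3 (0.168 and 0.092) and against a 1.2-fold change (0.953). CDH3 (chromosome 16, 68636189 to 68722616), P-cadherin, had 3419, 3166 and 3048 with gefitinib and 3741, 4534 and 4908 in control libraries. It fell by 0.44 ± 0.11 (SE, limma adjusted p = 0.00668, and 0.141 against a 1.2-fold change). Control replicate 1 was the lowest of its group. The difference was -0.56 without control replicate 1 and -0.36 without control replicate 3. Per kb, CDH1 stood at 1717 in gefitinib and 1972 in control and CDH3 at 515 in gefitinib and 705 in control, so CDH1 was the more abundant in both. CDH15, M-cadherin of muscle, had 2 reads in gefitinib and 1 in control libraries. CDH2, N-cadherin, had no row and could not be tested.

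The 2 catenin members moved in opposite directions. CTNNA1 (chromosome 5, 138610967 to 138935034), alpha-E-catenin, which ties the cadherin complex to actin, had 2457, 2649 and 2553 normalized reads in gefitinib libraries, against 1425, 1287 and 1283 in control libraries. It was 1.92-fold higher, with a difference of 0.94 ± 0.08 (SE; limma adjusted p = 1.93e-05). CTNND1 (chromosome 11, 57753243 to 57819546), p120-catenin, which keeps cadherins at the cell surface, had 10480.4, 9972 and 9666 with gefitinib and 13056, 12389 and 12331 in control libraries. It fell by 0.33 ± 0.07 (SE; limma adjusted p = 0.00418, and 0.359 against a 1.2-fold change). CTNNB1, beta-catenin, which binds between cadherin and alpha-catenin and is no member, had 7026 ± 189 in gefitinib and 7638 ± 40.7 in control libraries (SD, n = 3 each; limma adjusted p = 0.165).

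Among the less usual cadherins, CDH24 had the largest rise of all members past the threshold. CDH24 (chromosome 14, 23047062 to 23057538, minus strand), a type II cadherin that binds catenins, had 169, 315 and 334 normalized reads in gefitinib libraries, against 49.4, 59.1 and 61.8 in control libraries. Gefitinib replicate 1 was the lowest of its group and above all control libraries, and the difference was 2.19 ± 0.27 (SE; limma adjusted p = 0.000153). CDH23, the cadherin of hair-cell tip links in the inner ear, had 665, 744 and 759 in gefitinib and 368, 579 and 676 in control libraries, overlapping through control replicate 3, and its difference of 0.46 ± 0.20 did not pass (limma adjusted p = 0.0843). With the GC trend removed it passed (0.00163), as it did without control replicate 3 (0.0168) and with the replicate block (0.0359). When control replicate 1, which lay 0.76 below the other controls for this transcript of 59.2% GC, was left out, the difference was 0.21 (limma adjusted p = 0.123). In the annotation 18.9% of the exon bases of CDH23 are shared with C10orf105 on the other strand. CDH26, of esophageal and airway epithelium, had 155, 179.8 and 178 in gefitinib and 149.5, 151 and 198 in control libraries. CDH5, the cadherin of blood vessel endothelium, had 33.5 ± 5.09 in gefitinib and 50.5 ± 9.09 in control libraries and did not pass (limma adjusted p = 0.101), and CDH16, a cadherin of kidney and thyroid epithelium, had 21.8 ± 4.37 in gefitinib and 38.2 ± 21.1 in control libraries (limma adjusted p = 0.262; 0.0176 when control replicate 1 was left out). CDH7 had 1 read in gefitinib and 1 in control libraries, and CDH13 had 2 in gefitinib and 1 in control libraries.

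Of the 8 polarity members 3 rose, 2 fell and 3 did not pass. That is 62.5% called, against 51.1% of all genes tested and 61.8% of those with a mean of 100 normalized reads or more. SCRIB (chromosome 8, 143790920 to 143815379, minus strand), the scaffold of the basolateral complex, had 577, 788 and 837 normalized reads in gefitinib libraries, against 126, 292 and 375 in control libraries. All gefitinib values lay above all control values, and the difference was 1.59 ± 0.35 (SE; limma adjusted p = 0.00424). Both first replicates were the lowest of their groups, and control replicate 1 lay 1.39 below the other controls on the log2 scale; without it the difference was 1.13. LLGL2 (chromosome 17, 75525080 to 75575208), a Lgl protein of the same complex, had 452, 535 and 595 with gefitinib and 175, 313 and 391 in control libraries, and rose by 0.91 ± 0.26 (SE; limma adjusted p = 0.0167, and 0.0552 and 0.0624 without gefitinib replicate 2 or 3). When control replicate 1 was left out LLGL2 was higher by 0.58 (limma adjusted p = 0.00689). Its relative LLGL1 had 455, 465 and 441 in gefitinib and 198, 383 and 503 in control libraries, where the gefitinib libraries lie inside the wide control range (difference 0.43 ± 0.29, limma adjusted p = 0.242). When control replicate 1 was left out LLGL1 differed by 0.05 (limma adjusted p = 0.775), without control replicate 3 by 0.72 (0.0337), and with the GC trend removed by 0.45 (0.0225). SCRIB, LLGL2 and LLGL1 have 66.5%, 64.0% and 61.5% GC, and control replicate 1 lay 1.00 below the other controls for LLGL2 and 1.15 below them for LLGL1.

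On the apical side, CRB3 (chromosome 19, 6463777 to 6467221), the main Crumbs protein of most epithelia, had 86.0, 89.5 and 88.6 normalized reads in gefitinib libraries, against 138, 209.7 and 225 in control libraries. It fell by 1.08 ± 0.22 (SE; limma adjusted p = 0.00269), with control replicate 1 the lowest of its group. PARD6A, an adaptor of the PAR complex, fell from a low level, with 21.2, 14.5 and 13.1 in gefitinib and 40.2, 60.2 and 45.4 in control libraries (limma adjusted p = 0.00257). The other PAR6 genes were PARD6B and PARD6G. PARD6B had 491 ± 51.1 in gefitinib and 423 ± 80.6 in control libraries (SD, n = 3 each) and did not pass (limma adjusted p = 0.263). Its limma adjusted p was 0.0425 when control replicate 1 was left out and 0.672 when control replicate 3 was. PARD6G, with 43 reads in gefitinib and 12 in control libraries, rose (limma adjusted p = 0.0419). The PARD6G groups overlapped, with gefitinib replicate 1 at 6.61 and control replicate 2 at 6.69 normalized reads. Its adjusted p was 0.166 with DESeq2 and 0.0543 with edgeR without a filter, and from 0.0183 to 0.166 over all alternatives. PARD3 (chromosome 10, 34109560 to 34815325, minus strand), the scaffold of the complex, had 1521, 1455 and 1505 with gefitinib, against 1870.0, 1736 and 1612 in control libraries. The groups did not overlap, but the difference of -0.22 ± 0.08 did not pass (limma adjusted p = 0.058); in 10 alternatives it did, among them TMM factors (-0.28, limma adjusted p = 0.0388) and edgeR on recovered reads (adjusted p = 0.0324).

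**Figure D3:**
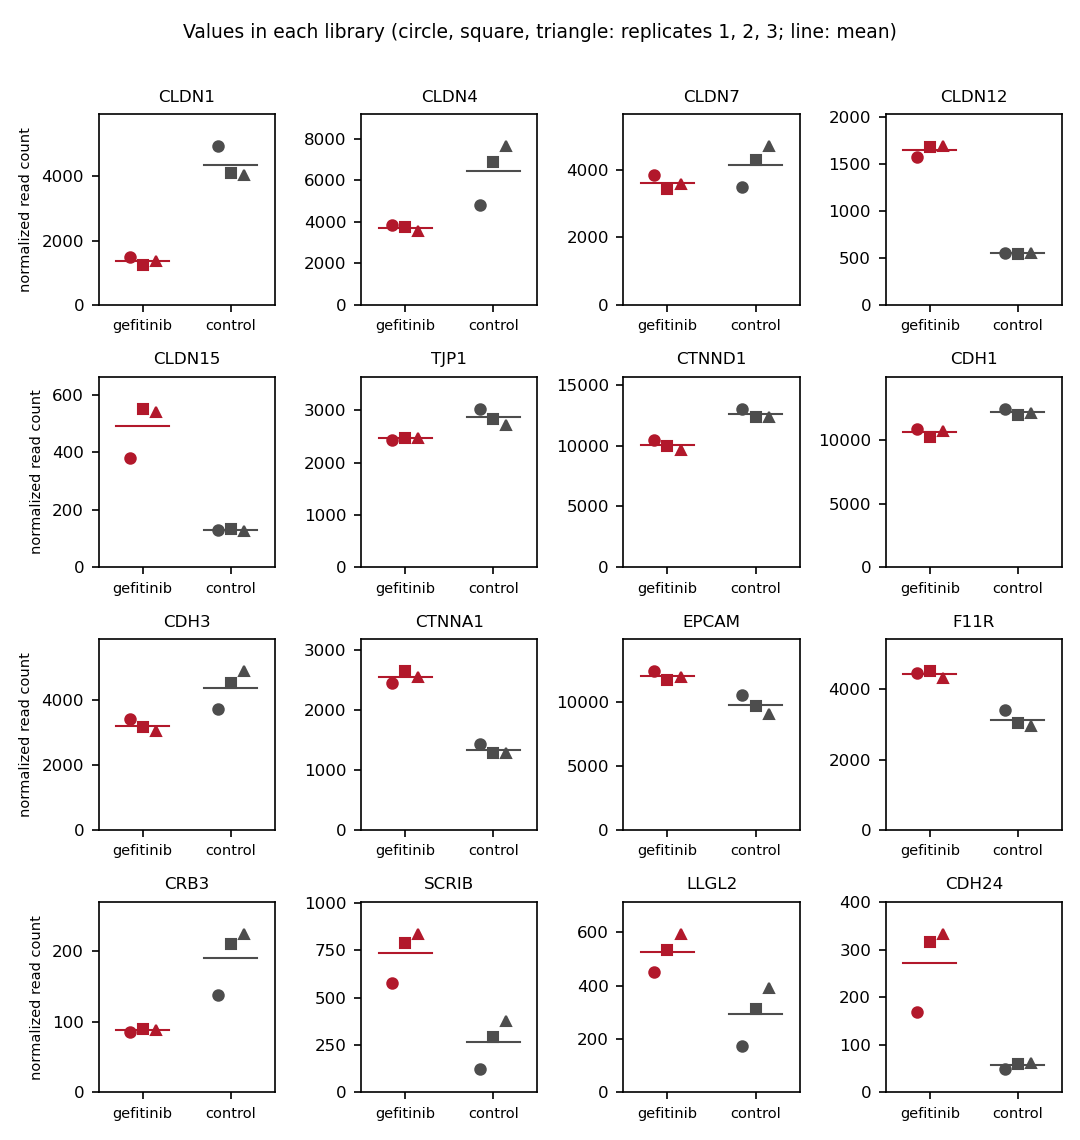
Normalized read counts of 16 members in each library, gefitinib left and control right in each panel, on linear axes from 0; symbols are replicates 1, 2 and 3 and lines are group means. CLDN1, CLDN12 and CTNNA1 show groups far apart and tight, whereas in SCRIB, LLGL2, CLDN4 and CRB3 control replicate 1 (circle) is the lowest of its group.

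**Figure D4:**
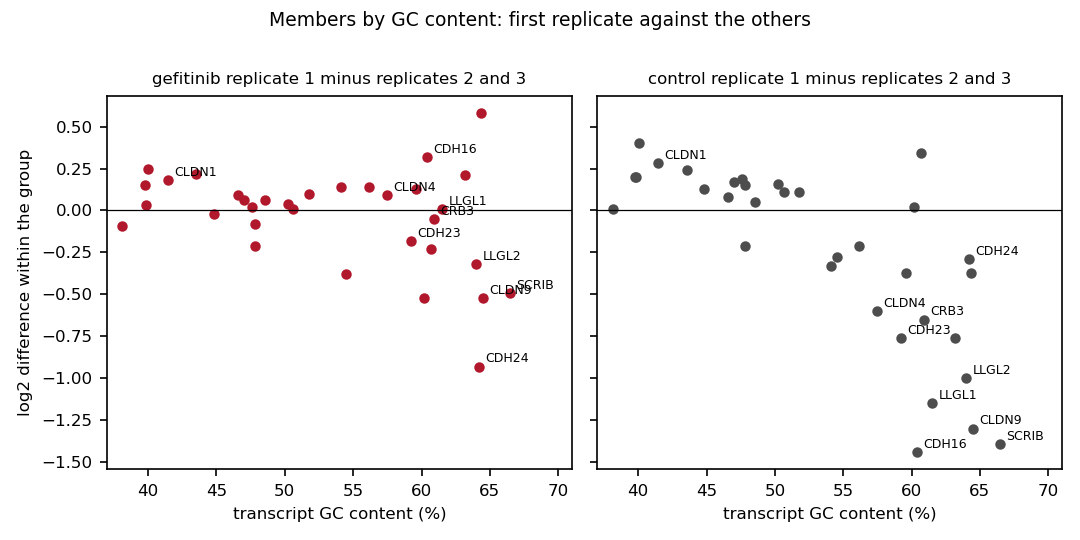
Log2 difference of the first replicate from the mean of the other replicates of its group, gefitinib left and control right, against the GC content of the longest coding transcript, for the 33 members with a mean of 10 normalized reads or more. In control replicate 1 the lowest members have high GC, down to -1.44 for CDH16 and -1.39 for SCRIB (Pearson r = -0.75, Spearman rho = -0.78 across these genes). Not all members with high GC lie low, with CLDN23 (60.7% GC) at 0.34 and CLDN15 (60.2% GC) at 0.02. In gefitinib replicate 1 r is -0.36 and rho -0.32.

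At the low end of GC content control replicate 1 lay above the other controls on the log2 scale, by 0.01 for CLDN12, 0.20 for CXADR, 0.20 for OCLN, 0.40 for PARD6B, 0.28 for CLDN1, 0.24 for MARVELD2 and 0.13 for TJP1, in order of rising GC. Among the 22 called members, 11 kept their call in all 20 alternatives, among them CDH24, CTNNA1, CLDN1, CLDN4, CLDN12, CLDN15, F11R, CRB3, PARD6A and SCRIB.

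The 6 names of the rule that the table holds under older symbols include the nectins, adhesion proteins that start a junction before cadherins gather. NECTIN1 (PVRL1) had 1922, 2429 and 2844 normalized reads in gefitinib libraries, against 603, 942 and 1102 in control libraries, and rose by 1.47 ± 0.22 (SE; limma adjusted p = 0.000423). The NECTIN1 transcript has 60.4% GC, and both first replicates were the lowest of their groups. NECTIN4 (PVRL4) rose by 0.45 ± 0.11 (limma adjusted p = 0.00733), with 653, 665 and 721 in gefitinib and 451, 529.9 and 516 in control libraries. NECTIN3 (PVRL3) had 8.51 ± 2.11 in gefitinib and 1.58 ± 1.44 in control libraries and rose (limma adjusted p = 0.0095). NECTIN2 (PVRL2) had 954, 1034 and 1045 in gefitinib and 973, 1454 and 1853 in control libraries (limma adjusted p = 0.0865). Its transcript has 59.4% GC, and the groups overlap through control replicate 1. AFDN (MLLT4), afadin, which links nectins to actin, had 4995 ± 159 in gefitinib and 5082 ± 51.0 in control libraries (limma adjusted p = 0.778). PATJ (INADL), a scaffold of the Crumbs complex, to which CRB3 also belongs, fell by 0.86 ± 0.09 (SE, limma adjusted p = 4.35e-05). It had 2807, 2465 and 2444 in gefitinib and 4975, 4552 and 4429 in control libraries.

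Partners of these genes outside the rule also moved in both directions. The genes named below from each list are among those with the smallest p in each direction at a mean of 100 normalized reads or more. They are thus the extremes of their lists and do not stand for the other partners. Of 33 listed partners of the cadherin and nectin complexes, 29 had a row: 6 rose, 11 fell and 12 missed the threshold (median log2 difference -0.12). That is 58.6% called, against 51.1% of all genes tested, of which 28.3% rose and 22.8% fell. Of all genes with a mean of 100 normalized reads or more, 61.8% were called. LMO7, an actin-linked adaptor of afadin, fell to 1217 ± 51.8 normalized reads in gefitinib, against 3458 ± 186 in control libraries (SD, n = 3 each; limma adjusted p = 1.79e-06), and ACTN1, the actin cross-linker alpha-actinin-1, fell to 4115 ± 448 in gefitinib, against 17399 ± 2604 in control libraries. AJUBA, a LIM protein that binds alpha-catenin, had 792 ± 64.9 in gefitinib and 199 ± 16.4 in control libraries and rose by 1.99 ± 0.12, and CBLL1, the E-cadherin ubiquitin ligase Hakai, rose by 0.86 ± 0.10.

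Of 39 further tight junction components listed, 38 had a row: 13 rose, 10 fell and 15 missed the threshold (median 0.03). That is 60.5% called, against 51.1% of all genes tested and 61.8% of those with a mean of 100 normalized reads or more. AMOTL1, an angiomotin relative, fell to 3384 ± 285 in gefitinib, against 12077 ± 544 in control libraries (limma adjusted p = 1.03e-06), and the small GTPase gene RAB3B fell by 1.86 log2 units. WNK1, a kinase that regulates chloride transport, had 10585 ± 1047 in gefitinib and 4183 ± 285 in control libraries and rose by 1.34 ± 0.09, and ESAM, an adhesion protein best known from endothelium, rose by 1.61 ± 0.17. Of 37 further polarity regulators listed, 35 had a row: 12 rose, 14 fell and 9 missed the threshold (median -0.04), with 74.3% called against 51.1% of all genes tested and 61.8% of those with a mean of 100 normalized reads or more. EPB41L4B fell to 365 ± 13.6 in gefitinib, against 935 ± 55.0 in control libraries, and MSN, moesin, which links membrane proteins to actin, to 4639 ± 209 in gefitinib, against 8795 ± 201 in control libraries. SLC9A3R1, the apical scaffold NHERF1, rose by 1.24 ± 0.18 (limma adjusted p = 0.000346).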

How the data were processed

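RNA of PC9ER cells was sequenced with standard Illumina libraries, per the labels' protocols; per the submitters' processing notes, STAR, HTSeq and GRCh38 were used, with no versions named. The table used holds a never-negative signal, deposited by the authors: gene read counts scaled to 1 total per library. Dividing by the smallest step recovered whole reads for 100% of values (tolerance 0.01). Another deposited table has 6 per-sample columns whose names match no label; they are not used, and its IDs served to find genes. Positions, lengths and overlaps are from GENCODE release 29, promoter windows from RefSeq.

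Groups follow the titles. Genes were tested 2-sided by limma 3.58.1 with an intensity trend, in R 4.3.3, after adding a pseudocount of 1 and taking log2, adjusting by Benjamini-Hochberg over 15229 genes with any read, threshold 0.05, tried on simulated data; differences are gefitinib minus control with SE, and understate the change of low genes. The members, lists and tests were chosen with earlier results of these data known. Values per library are given for members past the threshold at a mean of 100 or more and for core genes; 2 genes are counted but not reported here. Alternatives were 18 planned settings (pseudocounts, filters, scalings, edgeR 4.0.16, DESeq2 1.42.0, limma-voom, a 1.2-fold threshold, a replicate block, each library left out); removal of the GC trend (loess, span 0.3), with and without the block, was added after the data were seen. No pair of libraries in a group agreed within sampling noise. Exact 95% intervals cover counting error only.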

Additional observations from a re-analysis of the deposited data

How the results depend on the processing

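Testing against a 1.2-fold change left 7 members higher and 6 lower, in place of 12 and 10. Under every other alternative the member counts and the counts over all genes stayed within 1.5 times the reported ones. Leaving out 1 library at a time gave 8 to 13 members higher and 7 to 14 lower. Of the 22 called members, 11 lost the call in at least 1 alternative, each named with its values above. Differences near 0 changed sign: OCLN was -0.04 with TMM factors, -0.05 with DESeq2 size factors, edgeR with and without a filter and limma-voom, -0.06 with DESeq2, -0.07 with the GC trend removed with or without the block, and from -0.03 to 0.08 without 1 library. CXADR was -0.01 with TMM factors, -0.02 with DESeq2 size factors and edgeR with and without a filter, -0.03 with DESeq2 and limma-voom, -0.05 with the GC trend removed with or without the block, and from -0.01 to 0.11 without 1 library. CDH26 was -0.01 with TMM factors, DESeq2 size factors and edgeR with and without a filter, -0.02 with DESeq2, and from -0.02 to 0.18 without 1 library; MARVELD2 was from -0.16 to 0.01 without 1 library. The cause was not tested.

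Whether the replicate numbers pair the samples is not settled by these values. Same-numbered libraries of the 2 groups had deviations correlated at 0.13, 0.04 and 0.09. Control replicates 1 and 3 correlated best with the same-numbered gefitinib library, and control replicate 2 with gefitinib replicate 3 (0.09). With the replicate block 13 members were higher and 10 lower (14 and 13 with the GC trend also removed), and CDH23 was the only member whose call differed under the block without the GC correction. Members with few reads, such as CLDN2, CLDN6 and PARD6G, are limited by depth.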
